A study of Mus musculus with 16 samples.

Results

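The regions described here are 367 fixed 500-bp tiles of the mouse autosomes that were already methylated in the smallest oocytes profiled for methylation, before most oocyte methylation is laid down. They were chosen by measured values: a tile of chromosomes 1 to 19 needed at least 5 cytosines of at least 5 calls in each RRBS library of 40–45 μm oocytes and a mean methylation of at least 50% in both of them. Of 38416 tiles measured in both libraries, 449 reached 50% in library A, 487 in library B, 569 in at least 1 and 367 in both, which is 0.955% of the tiles measured. The members were then followed in 2 RRBS libraries each (A and B) of 50–55 and 60–65 μm oocytes and in 1 PBAT library of 60–65 μm oocytes, so that their levels at 40–45 μm describe the choice and the later libraries are the measurement.

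Every library came from pooled, size-sorted oocytes of wild-type C57BL/6 mice (C57BL/6Babr in the study's methods), with no treatment in any group. Larger oocytes came from older mice, in age ranges before puberty that overlap between neighbouring diameters, so that diameter and age cannot be told apart. RRBS (reduced representation bisulphite sequencing) reads the ends of MspI fragments and so samples CpG-rich sequence, whereas PBAT (post-bisulphite adaptor tagging) samples the whole genome. RNA-seq libraries of the same size classes, 2 of each, and of 10–30 μm oocytes supplied the expression values. The labels name separate libraries A and B but not separate groups of animals, so differences between them measure the spread between libraries only. RRBS libraries held between 29275627 and 55938194 CpG calls on these chromosomes and the PBAT library 94501474. Library A of 50–55 μm stood apart at shallow cytosines: the 845372 cytosines with fewer than 5 calls, which were not used, had a mean of 50.1%, against 3.47% to 17.3% in the other RRBS libraries.

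Methylation of the oocyte genome is erased in primordial germ cells and laid down afresh, after birth, in non-dividing growing oocytes by DNMT3A with its cofactor DNMT3L, mainly over transcribed gene bodies. Some endogenous retroviruses are known to escape complete erasure, the intracisternal A particle (IAP) elements of the ERVK class foremost among them. Such elements carry, between the left long terminal repeat (LTR) and the coding region, a site complementary to the end of the transfer RNA that primes their reverse transcription, and for IAP elements this is tRNA-Phe. In somatic and embryonic cells KRAB zinc finger proteins with TRIM28 and SETDB1 keep many of these elements silent.

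The members fell into a few groups by sequence, and the sequences below are shown because nearly all results turn on these groups. Tiles aligned to each other by blastn were linked into groups, which held 290 members (group 1, 79.0% of all), 33 members (group 2, 8.99%), 3 and 3 members, and 4 pairs, with 30 members left unlinked. For each of the 3 largest groups, taken in this order, the window of 300 bases with most covered cytosines is given of the member with the highest smaller 40–45 μm value, on the plus strand of GRCm38 and with CpGs in capitals.
Group 1, chr16:61327501-61327800: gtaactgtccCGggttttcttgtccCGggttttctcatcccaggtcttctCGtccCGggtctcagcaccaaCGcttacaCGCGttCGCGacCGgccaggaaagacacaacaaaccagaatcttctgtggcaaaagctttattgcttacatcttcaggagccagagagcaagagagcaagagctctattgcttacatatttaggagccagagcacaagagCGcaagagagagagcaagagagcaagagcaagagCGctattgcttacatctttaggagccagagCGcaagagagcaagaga
Group 2, chr6:129811001-129811300: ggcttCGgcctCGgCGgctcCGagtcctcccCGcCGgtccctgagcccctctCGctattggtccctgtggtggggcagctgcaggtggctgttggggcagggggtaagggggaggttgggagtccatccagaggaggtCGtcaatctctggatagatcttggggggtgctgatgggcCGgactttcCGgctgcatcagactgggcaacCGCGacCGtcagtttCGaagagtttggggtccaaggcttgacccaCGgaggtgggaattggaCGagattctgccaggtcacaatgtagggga
Group 3, chr11:88896016-88896315: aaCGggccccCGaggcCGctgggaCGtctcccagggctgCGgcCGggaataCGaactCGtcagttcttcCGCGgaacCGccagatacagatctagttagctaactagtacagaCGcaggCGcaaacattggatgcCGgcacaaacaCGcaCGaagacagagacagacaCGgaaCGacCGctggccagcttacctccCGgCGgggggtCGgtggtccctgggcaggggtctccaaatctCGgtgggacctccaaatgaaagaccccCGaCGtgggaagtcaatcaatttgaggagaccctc

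The group 1 window held 13 CpGs and 4 CCGG sites (the MspI site), the group 2 window 16 and 3, and the group 3 window 25 and 3. All 3 tiles lay between genes. The primer site found near the largest number of members was TGGTGCCGAAACCCGGGA, complementary to the ends of 7 annotated tRNA genes (tRNA-Phe and tRNA-Ser). It lay within 1000 bases of 40 members (10.9% of all), all of group 1. The stretch below is from the member with the highest smaller 40–45 μm value among 35 that hold the site within the tile, in an intron of Pms1, on the plus strand of GRCm38 with the site in capitals.
Primer site, chr1:53235987-53236064: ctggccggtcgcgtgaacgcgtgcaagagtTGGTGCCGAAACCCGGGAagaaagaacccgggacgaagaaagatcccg

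Group 1 thus included tiles with the primer site of IAP elements. The site was found near 51 of the 38416 tiles (0.133%), and 40 of these 51 were members. Of the 51, 46 were in group 1 or most like it, a set defined by likeness to the members. The tiles among these 46 that were not members had smaller 40–45 μm values of 28.9% to 44.6%. In group 2, 12 members lay near a tRNA-Pro site and 7 near a tRNA-Gly site, which are the primers of other retrovirus-like elements, and the tile centres lay a median of 1020.5 and 978 bases downstream of the site. Aligned stretches were 85.2% identical at the median in group 1, where 23.9% of pairs aligned, and 94.3% in group 2, where 75% did. Members of 1 group share sequence and are not independent of each other, and reads from copies too alike to tell apart were not separable from misplaced ones here.

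The members remained methylated through the window of oocyte growth in which other tiles gained methylation. In library A of 40–45 μm the median was 67.3% and in library B 69.8%. In the 50–55 μm libraries the medians were 69.5% (A, 350 members measured) and 72.7% (B, 264 members). In the 60–65 μm libraries they were 70.5% (A, 349) and 72.4% (B, 331). As means over both library medians these were 68.5% ± 1.79, 71.1% ± 2.26 and 71.4% ± 1.37 (SD, n = 2 libraries), so the classes differed by little more than their libraries. Over the 249 members measured in all 6 RRBS libraries the means were 69.2% ± 0.630, 71.6% ± 2.44 and 71.8% ± 1.03.

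**Figure D1:**
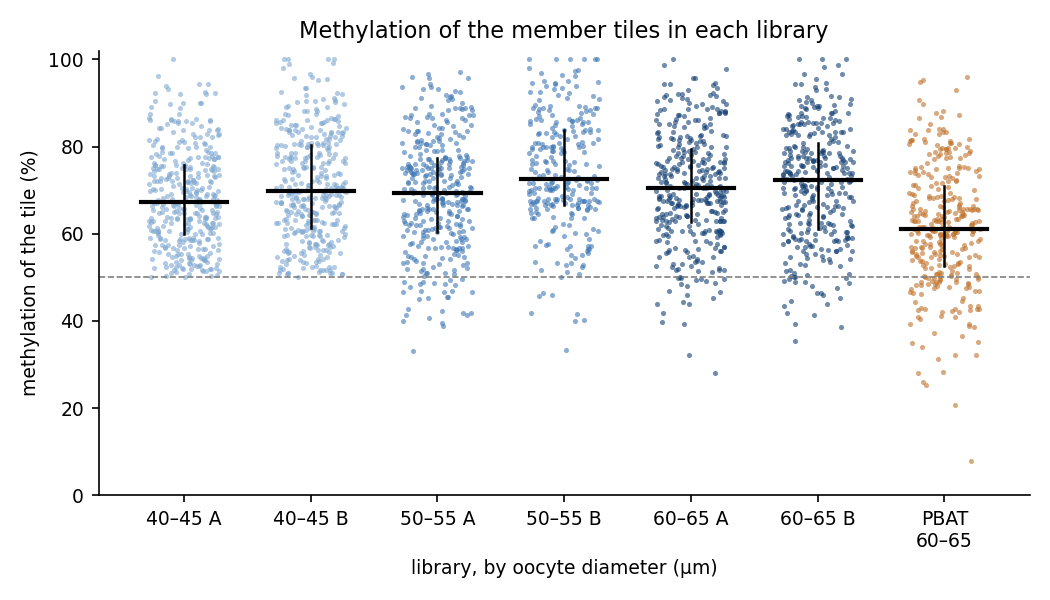
Methylation (%) of each member tile (points) in the 6 RRBS libraries, named by oocyte diameter in μm and letter, and in the PBAT library; thick bars are medians, thin bars the range from the 25th to the 75th percentile, and the dashed line is the 50% used to choose the members at 40–45 μm. Medians lay between 67.3% and 72.7% in RRBS and at 61.2% in PBAT.

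Few members lost their methylation. At least 50% remained in all but 29 of 350 and 8 of 264 members at 50–55 μm (A and B), and in all but 21 of 349 and 20 of 331 at 60–65 μm. No member fell below 25% in an RRBS library, and the lowest values were 33.1% and 33.3% at 50–55 μm, then 28% and 35.4% at 60–65 μm. Nor did most members become fully methylated: 36.1% and 42.6% of them reached 75% at 60–65 μm, against 27.8% and 37.9% at 40–45 μm. In library B of 50–55 μm 103 members, and in the other later RRBS libraries 17 to 36, missed the coverage minimum, and 5 members were measured in no later RRBS library.

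The question whether the members changed while other tiles gained was asked between 50–55 and 60–65 μm, since neither class was used to choose them. The median change over the 249 members measured in these 4 libraries was -0.66 percentage points, with 111 members higher and 138 lower at 60–65 μm. Within 10 points lay 201 of them (80.7%), and single members ranged from -21.9 to 33.4 points. The sign of the median depended on the library of 50–55 μm: against library A it was 1.34 and 2.11 points, and against library B -3.77 and -2.74. The 60–65 μm libraries did not overlap with those of 50–55 μm, being above them in all 4 pairings, in 41 members (16.5%), and were below in 38 (15.3%). Among all 4399 tiles tested 61.9% were above and 5.25% below in all 4 pairings.

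No member was called in the planned test of this comparison. With edgeR's quasi-likelihood test on methylated and unmethylated calls, 0 of 249 members and 0 of 4399 tiles (0%) had an adjusted p under 0.05 with 2 libraries against 2. At an unadjusted p under 0.05 there were 4 members (3 higher, 1 lower) and 1981 of all tiles (45%). With limma on transformed tile means, 0 members passed the adjusted threshold beside 1031 of 4399 tiles (23.4%). In the edgeR fit of all 6 RRBS libraries 7 members (2.81%, all higher) were called beside 2598 of 4191 tiles (62%), of which 2595 were higher. The counts also depended on the 50–55 μm libraries. Without library A, 5 of 249 members (2.01%, all lower) were called beside 1958 of 4705 tiles (41.6%), of which 1512 were higher and 446 lower. Without library B, 5 members (4 higher) were called beside 2324 of 3974 tiles (58.5%), of which 2321 were higher.

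For contrast, the 1475 tiles that were under 10% in both 40–45 μm libraries and at least 50% in both 60–65 μm libraries, called gained tiles below, had medians of 2.96% and 1.74%, then 32.8% and 33.0%, then 63.5% and 66.0%. These levels follow from how they were chosen and are given as a scale.

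**Figure D2:**
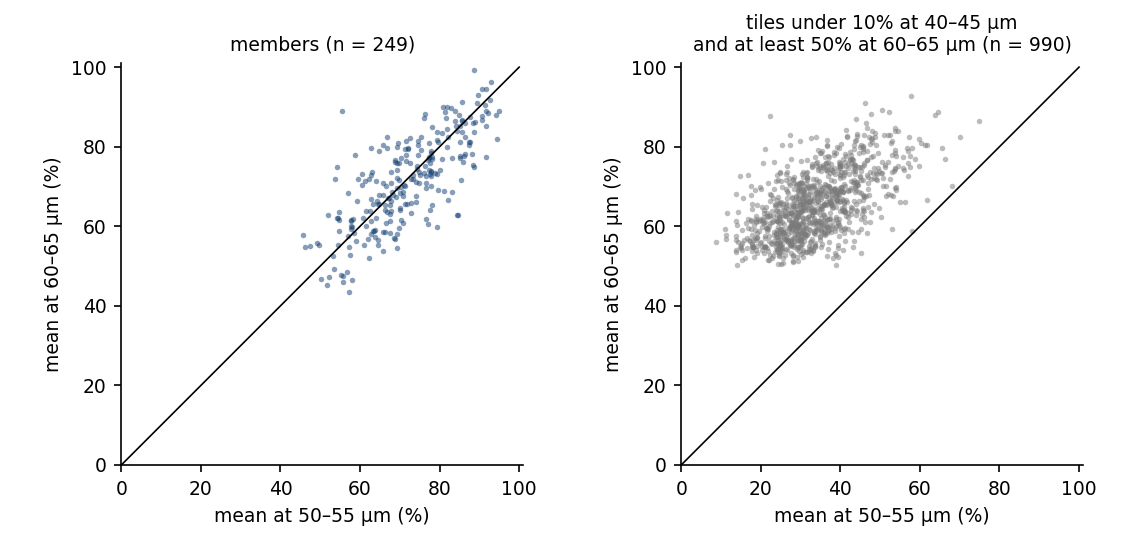
Mean methylation (%) over both libraries at 50–55 μm (horizontal) and 60–65 μm (vertical) of 249 members (left) and of 990 gained tiles (right), 1 point per tile, with the line of equality. Members lie along the line, 201 of them within 10 points of it, whereas the 990 gained tiles lie above it.

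The members named next are from the 5 largest rises and 5 largest falls among those that moved one way in all 4 pairings. The largest rise was in a group 1 tile between genes at chr6:122114501-122115000, which measured 52.9% and 72.7% at 40–45 μm, 42.9% and 68.1% at 50–55 μm, then 86.1% and 91.7% at 60–65 μm. Both RRBS libraries of 60–65 μm lay above the earlier ones, on only 36 to 210 calls in each RRBS library from 50–55 μm on, whereas PBAT read 60.5%. An intronic tile of Sbf2, a myotubularin-related guanine nucleotide exchange factor gene, went from 62.1% and 55.6% to 79.2% and 76.4%. This tile lay in surroundings that the PBAT library measured at 80.4%. Further large rises were in tiles between genes at chr5:58634501-58635000 and chr17:12557501-12558000, whose means were higher at 60–65 than at 50–55 μm by 20.6 and 18.2 points. Both stood lower at 50–55 μm (54.3% and 53.6%) than at 40–45 μm (67.6% and 62.0%), so that over the whole span the differences were 7.26 and 9.82 points. The chr5:58634501-58635000 tile had only 25 to 75 calls in each RRBS library from 50–55 μm on. PBAT read 81.5% in the Sbf2 tile, above both RRBS libraries of its diameter, 61.1% in the chr17 tile, below both, and 65.5% in the chr5 tile, between the 64.0% and 85.7% of RRBS.

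The largest fall was in an intronic tile of 4930548K13Rik (chr4:26663001-26663500), from 83.5% and 85.9% to 72.6% and 53.0%. It had 551 or more calls in each RRBS library from 50–55 μm on, and measured 20.7% in PBAT. Its unadjusted edgeR p was 0.0277 and its adjusted p 0.0777. A tile between genes at chr9:9599001-9599500 went from 77.9% and 80.8% to 53.1% and 66.7%. The others of the 5 largest falls, of 14.8 to 16.4 points, were in an exon of Tmem267, in an intron of Dcc (the netrin receptor gene) on chromosome 18 and between genes near Klra5. In 4 of these 5 the mean at 50–55 μm was above that at 40–45 μm, the exception being the tile at chr9:9599001-9599500. In the other 4 falls PBAT read 58.4% to 73.9%, and in the Dcc tile its 73.9% lay above both RRBS libraries of 60–65 μm (72.0% and 61.1%). Outside these falls, the members with an unadjusted edgeR p under 0.05 were an intronic tile of Dip2c (chr13:9529501-9530000), which measured 66.4% and 67.2% and then 82.2% and 82.7% (edgeR adjusted p = 0.0824), the chr6:122114501-122115000 tile (edgeR adjusted p = 0.104), and a tile between genes at chr6:121957501-121958000 (edgeR adjusted p = 0.0939).

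Among members measured in all 6 RRBS libraries, the highest tile at 60–65 μm was in an intron of Stam (chr2:14085501-14086000), a gene of endosomal sorting, with 90% and 77.7% at 40–45 μm, 97.1% and 80% at 50–55 μm, then 98.7% and 100% at 60–65 μm, on 75 to 345 calls. Next came intronic tiles of Mphosph9 (93.5% and 98.8%), of Rgs20 (95.8% and 93.0%) and of Filip1 (91.8% and 94.3%), and a group 2 tile between genes at chr5:95054501-95055000 (92.2% and 96.7%). The Rgs20 tile measured 25.3% in PBAT. The lowest was in an intron of 9130221F21Rik (chr6:72036501-72037000), with 64.9% and 69.7%, then 58.1% and 56.1%, then 51.7% and 35.4%. The others of the 5 lowest, among them an intronic tile of Acvr1c (an activin-type receptor gene), had 41.9% to 51.7% at 60–65 μm. In PBAT these 5 tiles were not low, with 54.6% to 70.0% beside the members' median of 61.2%. All 5 lay in surroundings of at most 11.8% in PBAT, whereas the flanks of the highest tiles ranged from 10.6% to 76.8% where measured.

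In the PBAT library 330 members were measured, with a median of 61.2%, about 10 points under RRBS of the same diameter. The libraries did not read the same cytosines. At those covered by both, PBAT and RRBS library A had medians of 71.7% and 70.5% over 165 members, with a median difference of 0.286 points, and against library B of 72.2% and 72.0% over 152 members, with -0.21 points. PBAT read 16 cytosines per member at the median and the RRBS libraries 6, which lie at the ends of MspI fragments. Below 50% in PBAT were 65 members (19.7%), and 2 were below 25%.

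Single cytosines were counted by level within the members. At 60–65 μm, of cytosines with at least 20 calls, 4.77% (A) and 4.33% (B) were under 25%, 49.6% and 48.6% between 25 and 75%, and 45.6% and 47% at or above 75%. At 40–45 μm the shares at or above 75% were 42.8% and 48%. In PBAT, of 2590 cytosines with at least 10 calls, 10.0% were under 25%, 61.1% between and 28.9% at or above 75%, which is more low and fewer high cytosines than in RRBS. The SD between cytosines of 1 tile had a median of 17.4 to 23.9 points over the RRBS libraries. Both strands of a CpG were covered by at least 10 calls in 139 to 212 CpGs per RRBS library and in 373 in PBAT. They differed by 9.67 to 18.2 points at the median, and CpGs with 1 strand at 75% or more and the other under 25% made up 1.04% to 9.35% in RRBS and 0% in PBAT.

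Sequence groups differed in level. In group 1 the medians for libraries A and B were 67.5% and 69.6% (40–45 μm), 69.5% and 73.4% (50–55 μm), then 69.8% and 72.4% (60–65 μm). In group 2 they were 75% and 82.3%, 79.1% and 77.7%, and 81.8% and 76.6%, and the unlinked members had 60.7% and 64.7%, 60.4% and 67.5%, and 66.5% and 60.0% in the same order. Group 2 thus lay above group 1 in each RRBS library, and in PBAT (68.2% against 60.5%). Its median change from 50–55 to 60–65 μm was 1.12 points over 21 members, and that of group 1 -1.23 points over 195.

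Tiles related in sequence to group 1, members included, spanned the whole range of levels. Of the measured tiles, 1255 were in group 1 or had their best match there and 360 of them had a mean under 10% at 40–45 μm, 217 from 10 to 25%, 317 from 25 to 50%, 280 from 50 to 75% (209 of them members) and 81 above that (all members). Those of 25 to 50% at 40–45 μm measured 38.2% and 46.1% at 50–55 μm, then 41.2% and 42.5% at 60–65 μm (medians of 168 tiles in all 6 libraries). Those under 10% measured 5.22% and 4% at 60–65 μm. Over the 726 of these tiles measured in all 6 RRBS libraries, the medians were 31.4% and 31.9% at 40–45 μm and 38.1% and 38.2% at 60–65 μm. From 40–45 to 60–65 μm the median change in the 5 bands was between -0.911 and 3.41 points, against 62.2 points in the gained tiles, which were chosen for it. These changes start from the values that set the bands. From 50–55 to 60–65 μm, which did not set them, the median changes were between -1.51 and 0.625 points. The share of masked sequence rose from band to band, from 73.8% to 98.6% at the median.

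**Figure D3:**
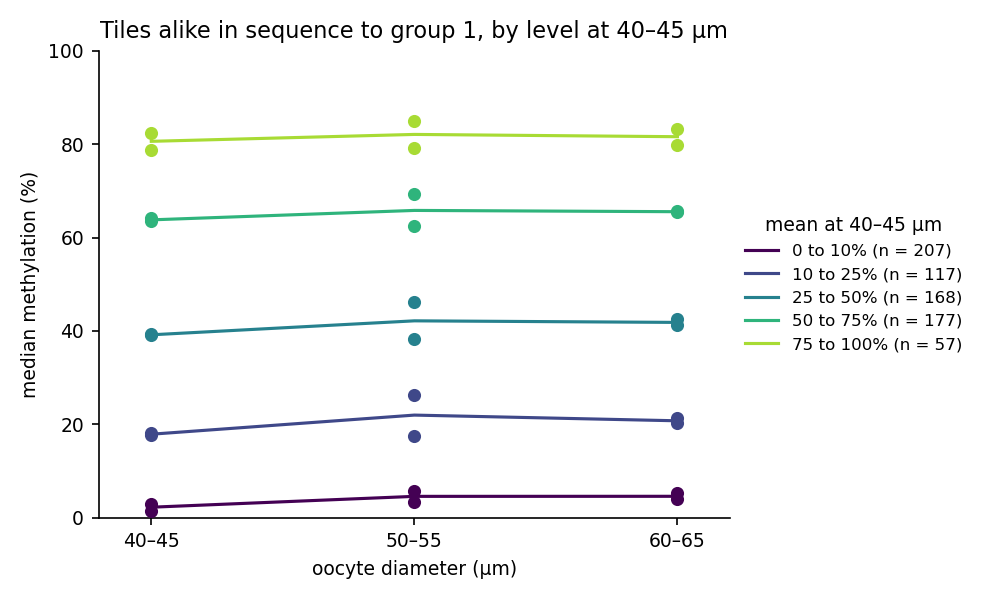
Median methylation (%) by oocyte diameter (μm) of tiles in or most like sequence group 1, split into 5 bands of their mean at 40–45 μm, with n the tiles measured in all 6 RRBS libraries; each point is 1 library and lines join the means of both. The bands, set by the 40–45 μm values, stay in order, with median changes of at most 3.41 points from 40–45 to 60–65 μm. From 50–55 to 60–65 μm the median changes are between -1.51 and 0.625 points.

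The place of the members in the genome set them apart from the gained tiles. Of the members, 324 (88.3%) were at least 50% repeat-masked, against 1.22% of the gained tiles, 0.913% of the 28709 tiles that stayed under 10% and 3.7% of all tiles measured. By chromosome the members' share ranged from 69.6% to 100%. Between annotated genes lay 272 members (74.1%), in introns 83 and on exons 12, whereas 73.5% of the gained tiles touched an exon and 2.31% lay between genes. The nearest protein-coding start was a median of 108241 bases from a member and 21304 bases from a gained tile. The members had a GC content of 51.8% and 20 CpGs at the median, the gained tiles 55.6% and 15. Group 1 members within a single gene lay on its strand in 29 cases and on the other in 41, by the orientation of the alignments. Nearly all members stood alone, with 3 pairs of adjacent tiles and no longer run. One pair lay in Pms1, a mismatch repair gene, one between genes on chromosome 10, and one at the start of 3110070M22Rik on chromosome 13.

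The sequence around most members was less methylated than the tile itself. In PBAT, unmasked cytosines 1 to 10 kb from the tile had a median of 21.3% over 325 members, against 51.5% around gained tiles, 12.2% around tiles that stayed low and 14.5% around all tiles measured. It was 20.2% around masked members and 12% around masked tiles that were not members. The members' surroundings thus lay below those of gained tiles and above those of the other sets. The flanks of 54 members were under 10% and those of 137 from 10 to 25%, and the tile exceeded its flank there by 51.4 and 42.1 points at the median. The 49 members with flanks of at least 50% measured 66.5% and 67.6% at 40–45 μm, 75% and 79.0% at 50–55 μm, then 81.5% and 76.8% at 60–65 μm (medians of 31 members in all 6 RRBS libraries). Those with flanks under 10% measured 65.0% and 67.4%, 64.3% and 70.8%, and 66.0% and 69.4% (medians of 35 members in all 6 RRBS libraries). PBAT medians, over all members of a band that PBAT measured, were 72.8% and 60.0%. Their median changes from 50–55 to 60–65 μm were 3.34 and -2.86 points. All of this describes the bands, since the number of members in them is small and no test was made.

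**Figure D4:**
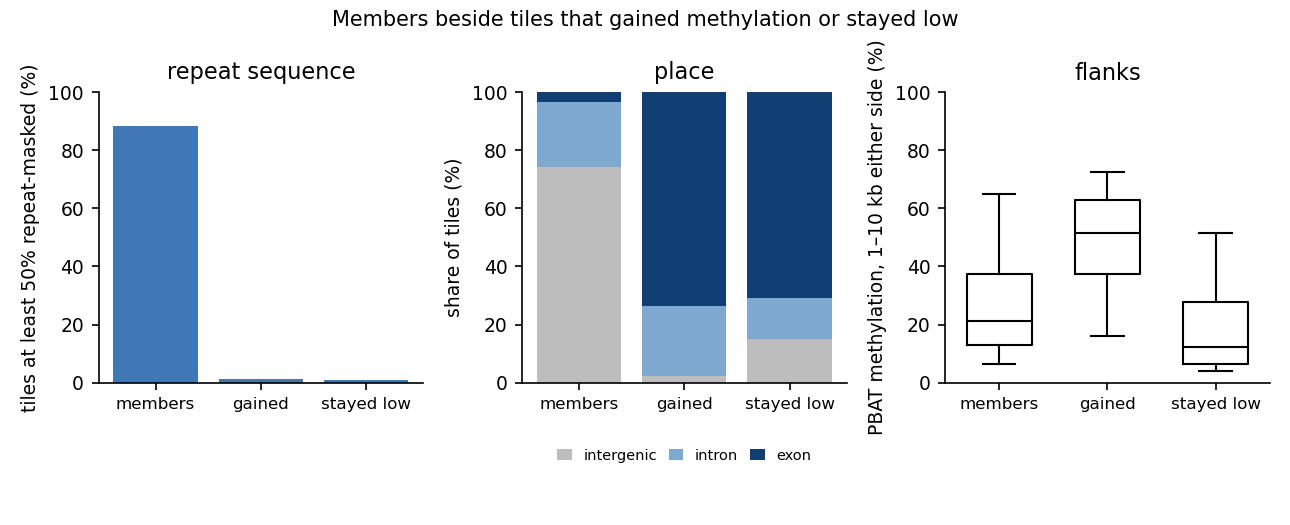
Members beside gained tiles and tiles that stayed under 10% at 40–45 and 60–65 μm, as the share (%) at least 50% repeat-masked (left), the share (%) between genes, in introns and on exons (middle), and PBAT methylation (%) of unmasked cytosines 1 to 10 kb either side (right; box, quartiles and median, whiskers 5th to 95th percentile). Members are 88.3% repeat and 74.1% intergenic, with flanks at 21.3% against 51.5% for gained tiles and 12.2% for tiles that stayed low.

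The members were also split by transcription of the host gene. The RNA table gave a gene for 69 members, of which 35 lay in genes with a mean of at least 1 RPKM over the 40–45 to 60–65 μm libraries. RPKM are reads scaled to transcript length and library size, a unit inferred here from the values, since the deposited table is named as read counts. These members had medians of 68.0% and 65.4% at 40–45 μm, 75% and 82.4% at 50–55 μm, then 83.4% and 83.0% at 60–65 μm (22 members in all 6 libraries), and 73.5% in PBAT. Members in genes under 1 RPKM had 66.1% and 68.3%, 72.2% and 83.1%, and 71.7% and 71.5%, and 60.7% in PBAT. Members outside the genes of the table had 69.2% and 70.4%, 69.5% and 72.3%, and 69.9% and 71.8%, and 60.5% in PBAT. The flanks of these 3 sets were at 57.9%, 22.0% and 20.1%. From 50–55 to 60–65 μm, the libraries that did not choose the members, the median changes were 4.54, -1.80 and -1.42 points over 22, 22 and 205 members, with no test. At 50–55 μm members in genes over and under 1 RPKM had similar medians. Expression and surroundings went together, and their parts were not tested.

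Under 10% of the tile was masked in 8 members, and the 2 below are shown because they hold annotated starts of protein-coding genes. The first, in a tile with no masked base, holds starts of Sfi1 (a centrosomal protein gene) and overlaps Drg1 (a GTP-binding protein gene), and the second holds the start of 3110070M22Rik and lies within Tmem267. Both windows are on the plus strand of GRCm38 with CpGs in capitals.
Drg1 and Sfi1, chr11:3193201-3193500: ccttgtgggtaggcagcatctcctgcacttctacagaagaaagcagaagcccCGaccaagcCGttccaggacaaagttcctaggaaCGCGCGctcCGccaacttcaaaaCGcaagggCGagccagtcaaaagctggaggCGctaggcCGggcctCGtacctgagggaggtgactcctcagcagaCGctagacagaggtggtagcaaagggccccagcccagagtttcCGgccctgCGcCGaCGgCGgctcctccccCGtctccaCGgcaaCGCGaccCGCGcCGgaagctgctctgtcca
Tmem267 and 3110070M22Rik, chr13:119488193-119488492: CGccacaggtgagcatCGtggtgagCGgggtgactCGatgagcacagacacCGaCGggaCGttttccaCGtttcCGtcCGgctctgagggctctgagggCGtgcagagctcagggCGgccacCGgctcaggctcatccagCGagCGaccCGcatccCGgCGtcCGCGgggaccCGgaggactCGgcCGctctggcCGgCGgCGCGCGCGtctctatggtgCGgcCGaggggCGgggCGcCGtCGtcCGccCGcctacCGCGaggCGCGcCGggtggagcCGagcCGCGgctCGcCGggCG

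The Drg1 and Sfi1 tile (chr11:3193001-3193500) measured 62.9% and 64.2% at 40–45 μm, 57.3% and 65.8% at 50–55 μm, 62.0% and 65.5% at 60–65 μm and 51.9% in PBAT. The libraries overlapped between diameters. Single cytosines of the window differed in level and in how far the libraries spread. The cytosine at base 185 measured 6.31% to 15.7% in the RRBS libraries, and the one at base 274 81.5% to 89.5%, whereas that at base 242 ranged from 46.7% to 71.9%. In PBAT the coverage of this tile stood far above all other members, with 93.5 calls per cytosine against a median of 7.54 over all tiles. It had 975 to 1329 calls per cytosine in the RRBS libraries. In library B of 50–55 μm the member at chr2:133009001-133009500 was deeper, with 6085 calls on 5 cytosines. The Drg1 and Sfi1 tile was the only 1 of the 330 members measured in PBAT, and 1 of 19 among 33505 tiles, at 5 or more times the median. Whether reads of further copies contribute to its level was not tested.

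**Figure D5:**
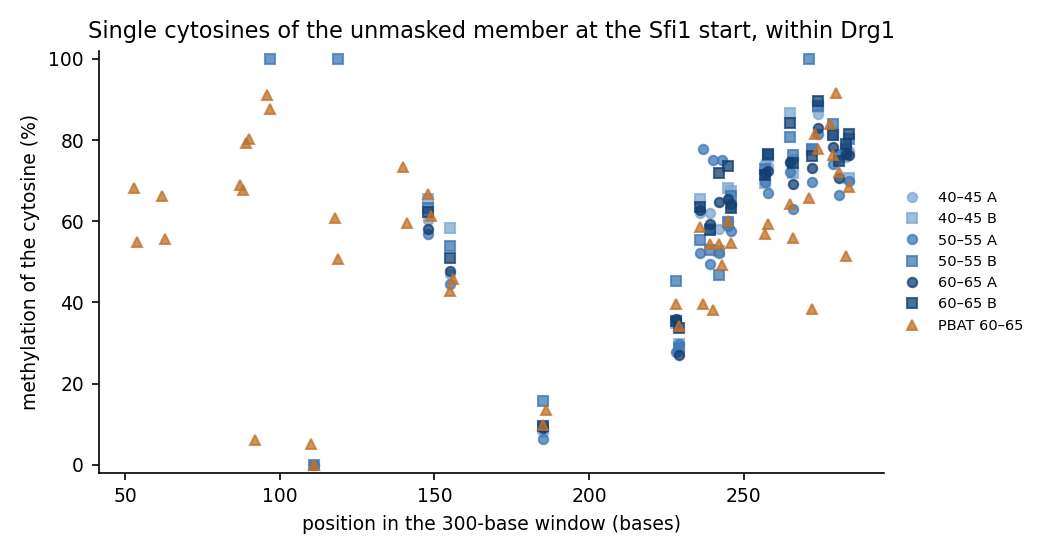
Methylation (%) of single cytosines with at least 5 calls against their position (bases) in the 300-base window at the Sfi1 start, within Drg1, 1 symbol and colour per library (6 RRBS by diameter in μm and letter, and PBAT). In the RRBS libraries the cytosine at base 185 lies at 6.31% to 15.7% and that at base 274 at 81.5% to 89.5%.

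The adjacent tiles at Tmem267 and 3110070M22Rik made up the only other members within 500 bases of protein-coding starts besides 1 at the start of Gm49394. The tile at chr13:119488001-119488500, with 67 CpGs, measured 53.1% and 64.6%, 51.8% and 63.6%, 58.4% and 60.4%, and 34.9% in PBAT. The tile at chr13:119488501-119489000 measured 63.5% and 77.5%, 67.1% and 87.0%, 61.8% and 59.5%, and 59.9% in PBAT. Their PBAT coverage was 20.9 and 18.5 calls per cytosine, above the median of all tiles. The tile on exons of Gm49394 and Igf2os (chr7:142669501-142670000) measured 56.6% and 56.0%, 56.7% and 70.0%, 74.5% and 56.6%, and 63.5% in PBAT, without an order by diameter. An intronic tile of Gm20388 and Def8 (chr8:123427501-123428000) measured 56.0% and 65.1%, 46.7% and 62.2%, 58.2% and 66.1%, and 62.9% in PBAT. In all, 4 members (1.09%) lay within 500 bases of a protein-coding start, against 43.2% of all tiles.

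The binding motif of ZFP57, a KRAB zinc finger protein that keeps imprints methylated, is TGCCGC with a methylated CpG. Searched on both strands, it was present in 125 members (34.1%), 114 of the 290 in group 1 (39.3%) and 4 of the 33 in group 2 (12.1%). It was present in 28.4% of all tiles measured and in 9.58% of the 1096 masked tiles that were not members. The letters of the tRNA-Phe primer site hold part of this motif, TGCCG, but not all of it. Presence of the letters is a description and not a binding site.

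At the 50% threshold the values were as follows, with no test. The 3 members just inside had smaller 40–45 μm values of 50.0%, 50.0% and 50.2%, and measured 32.1% and 46.4%, 60.7% and 70.0%, and 55.6% and 39.2% at 60–65 μm. The 3 tiles just outside, at 49.8% to 49.98%, measured 54.0% and 57.3%, 86.8% and 96.4%, and 78.1% with no value in library B. The 74 members of 50 to 55% had medians of 57.7% and 65.4% at 50–55 μm, 61.8% and 58.2% at 60–65 μm and 57.6% in PBAT. The 81 tiles of 45 to 50% had 51.1% and 57.3%, 53.7% and 56.1%, and 48.5%, lower in each of these libraries.

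Genes whose products lay down, keep or remove methylation were read from the RNA-seq libraries, between 40–45 and 60–65 μm, with limma on log2(RPKM + 0.1) and Benjamini-Hochberg adjustment over 10499 genes, of which 3945 (37.6%) were called. Over all genes tested, 2072 (19.7%) rose and 1873 (17.8%) fell. Of the methyltransferases and their partners, all 6 tested, 2 rose. Dnmt3l, the cofactor of DNMT3A, measured 3.65 and 2.70 RPKM at 40–45 μm and 11.3 and 8.25 at 60–65 μm, a log2 change of 1.55 ± 0.19 (SE; limma adjusted p = 0.000808). Dnmt3b rose by 0.62 ± 0.10. Dnmt1, the maintenance enzyme, was at 398 and 486 RPKM and then 376 and 389, and Uhrf1, which recruits it, at 121 and 139 and then 119 and 108, neither of them called. In pooled oocytes a lower value can reflect fewer cells that express a gene or less RNA per cell, which cannot be told apart.

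Of 15 genes of KRAB zinc finger and H3K9 silencing, 14 were tested, 5 rose and 2 fell. Beside the counts of this paragraph, 19.7% of all genes rose and 17.8% fell. Trim28, the corepressor that KRAB zinc fingers recruit, went from 22.6 and 24.9 RPKM to 31.3 and 30.6, and Setdb1, the H3K9 methyltransferase that acts with it, from 15.1 and 15 to 20.1 and 18.8 (log2 changes of 0.34 ± 0.11 and 0.32 ± 0.09). Daxx, Zfp445 and 1 of 2 table rows of Atf7ip also rose, and Cbx3 and Ehmt2 fell. Of the genes of oxidation and protection, Dppa3, which guards maternal methylation, fell from 393 and 349 RPKM to 213 and 248, while Tet3 at 14.0 and 17.2 and then 30.6 and 22.2 was not called. Of 8 tested genes of the piRNA pathway, which directs methylation of transposons in male germ cells, 5 fell and 1 rose. Among them Mov10l1, an RNA helicase gene, fell from 3.35 and 4.67 RPKM to 1.23 and 1.56 and Mael from 13.8 and 15.5 to 7.06 and 8.58, whereas Pld6 rose by 0.49 ± 0.12.

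Host genes were called about as often as all genes. Of 66 genes of the table that hold a member, 38 were tested and 13 were called with limma (34.2%, against 37.6% of all genes), 6 higher and 7 lower at 60–65 μm. Their median log2 change was 0.01, beside 0.02 over all genes. The most abundant host at 40–45 μm was C130026I21Rik, with 23.7 and 28.7 RPKM, which fell to 8.72 and 10.1 (log2 change -1.51 ± 0.14, limma adjusted p = 0.000458). Eml6 also fell, from 7.38 and 7.06 to 4.39 and 5.17 (-0.63 ± 0.11, limma adjusted p = 0.00366). Of the 10 most abundant the other 8, Osbpl10, Prkd1, Dip2c, Suclg2, Ppm1h, Tmem232, Cmc1 and Drg1, were between 4.49 and 13.1 RPKM at the mean and were not called. Without library A or B of 60–65 μm, or library B of 40–45 μm, smaller shares of the host genes and of all genes were called. The median log2 change of the host genes was -0.01 without library A of 60–65 μm, beside 0.02 over all genes. It was 0.09 beside 0.01 without library B of 60–65 μm, and 0.02 beside 0.02 without library B of 40–45 μm.

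The libraries were oocyte-like by their markers. The 8 oocyte markers, among them Zp1, Zp2, Zp3, Gdf9 and Bmp15, summed to 2465 to 3387 RPKM in each library of growing oocytes. The 6 granulosa cell markers summed to 0.542 to 2.41 RPKM and the 6 theca and stroma markers to 0.405 to 2.76, and the 4 endothelium and blood markers found to 0.566 to 4.77, nearly all of it Pecam1. Of the oocyte markers Bmp15 rose and Figla, Ooep, Zp2 and Zp3 fell between 40–45 and 60–65 μm in limma. Of the markers of other cells, Cyp19a1 (0.266 and 0.227 RPKM at 40–45 μm, 1.25 and 1.04 at 60–65 μm), Inha and Pecam1 rose in limma, while Amh, Amhr2, Foxl2 and Fshr were below 0.3 RPKM in every growing oocyte library. These markers were read in RNA libraries and not in the methylation libraries, and the part that DNA of other cells could have in the members' level was not tested.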

How the data were processed

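Methylation was measured by RRBS in 6 libraries and by PBAT in 1 library of growing mouse oocytes. The authors trimmed reads with Trim Galore (0.3.5), aligned them to GRCm38 with Bismark (0.14.0 for RRBS, 0.10.0 for PBAT), removed duplicate reads from PBAT, and deposited for each CpG cytosine the percent methylated and the counts of methylated and unmethylated calls, strands apart. No removal of duplicates is stated for RRBS, whose calls are therefore not independent molecules, and depth covers counting error only. The authors deposited RNA-seq values that are read here as RPKM (reads trimmed with Trim Galore 0.2.8 and mapped with TopHat2 2.0.9, per the submitters' processing notes). The deposited table is named as read counts, but its values are not whole numbers and were taken as RPKM. The study's methods name Cufflinks, with FPKM summed over the transcripts of a gene, and SeqMonk, and do not say which of them made this table, so RPKM and FPKM cannot be told apart.

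The percent was recomputed from the counts. The members and gene lists were chosen with earlier results of these data known. Tiles of 500 bases started at base 1 of each chromosome and were given the mean over cytosines. Masking was read from the soft-masked GRCm38 sequence, genes from GENCODE M21, and groups from blastn 2.17.0 (E value 1e-20, single linkage). Contrasts with 40–45 μm have no test. Between 50–55 and 60–65 μm, edgeR 4.0.16 (quasi-likelihood, a term per library and a methylation term per class) tested all tiles with at least 5 cytosines of at least 5 calls in each of the 4 libraries and a mean of at least 5%. RNA was tested with limma 3.58.1 with trend on log2(RPKM + 0.1) after trimmed-mean scaling, over genes of at least 0.5 RPKM in 2 of 8 libraries, all 4 classes in 1 fit. Adjusted p-values are Benjamini-Hochberg, threshold 0.05. Both were run on simulated data with known changes put in, which does not show how many real changes they miss here. Named members were the 5 highest and 5 lowest at 60–65 μm, the 5 largest rises and falls, the 5 least masked, those within 500 bases of a protein-coding start, the longest runs, those at the threshold and the top member of 3 groups. Sequences of chromosome 18 are not shown, and 1 of the largest rises is not reported here. Named hosts were the 10 most abundant at 40–45 μm. Python 3.11.15 and R 4.3.3 were used.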

Additional observations from a re-analysis of the deposited data

How the results depend on the processing

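Of 73 alternative values, 54 kept the value within the spread or the count within 1.5 times. The number of members was 313 with a minimum of 10 calls, 365 on a grid shifted by 250 bases, 366 from pooled calls, 523 at a threshold of 40%, 232 at 60% and 46 with at least 10 cytosines. Members at the 60% threshold had medians of 76.4% at 50–55 μm and 75.3% at 60–65 μm, and the other settings kept these medians between 69.5% and 72.7%. The median change from 50–55 to 60–65 μm, -0.66 points, was -2.74 without replicate A and 1.34 without replicate B, so its sign rests on single libraries.

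The count of tiles called between 50–55 and 60–65 μm was the least stable value. Against 0 tiles, there were 2598 in the fit of all 6 RRBS libraries, 1031 with limma, 983 with a minimum of 10 calls and 1341 with adjusted deviances, a setting chosen after seeing the data. Without 1 library at a time it ranged from 0 to 2324, where the lone library of a class is assumed to vary like the others. Members called were 7 of 249 in the fit of all 6 libraries, all higher as were 2595 of the 2598 tiles, and 0 to 5 without 1 library at a time. Without library A of 50–55 μm the 5 were at chr6:117087001-117087500, chr9:7300501-7301000, chr10:37853501-37854000, chr13:119488501-119489000 and chr14:103642001-103642500. Without its library B they were at chr4:26663001-26663500, chr6:121957501-121958000, chr6:122114501-122115000, chr12:50402501-50403000 and chr13:9529501-9530000, with none in common. Genes called ranged from 1330 to 4443 and host genes called from 3 to 14 without 1 library at a time.

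Deviations of RRBS libraries with the same letter correlated at -0.0389 over the tested tiles and 0.0771 over members. In RNA-seq the same-letter correlations were 0.597, 0.589 and 0.672 among the 10–30, 40–45 and 50–55 μm libraries and 0.115 between 50–55 and 60–65 μm, but -0.226 and -0.0273 for 60–65 μm with 10–30 and 40–45 μm. Not every pair exceeded 0.1, so the letters were not taken as pairing the samples, although libraries of the 3 smaller classes deviated together. With the letters as a replicate block, 0 tiles and 0 members, 4880 genes and 19 of 38 host genes were called. Members had 176 to 265 calls per RRBS library at the median.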
